A study of Mus musculus with 6 samples.

Results

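Genes of ketone body breakdown and of the PPAR fuel switch were followed in the forebrain of mice on a short-term high-fat diet. The 8 genes were taken by symbol from the 23282 rows of the count tables. They were Bdh1, Oxct1, Acat1, Pdk4, Angptl4, Plin2, Ucp2 and Ppargc1a, and each had 1 row. C57BL/6J wild-type male mice of 8 to 10 weeks received a normal chow diet (NCD) or a high-fat diet (HFD) with 60 kcal% fat for 10 days. One forebrain hemisphere, without the olfactory bulb and cerebellum, went to RNA sequencing, with 3 libraries of NCD mice and 3 of HFD mice. The labels do not state that each library came from its own mouse, so p-values measure the spread between these libraries, which may be partly technical. A hemisphere holds many cell types, and in bulk RNA fewer cells of a type and less RNA per cell cannot be told apart.

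The brain runs on glucose when food is rich in carbohydrate and takes up ketone bodies, made mostly by the liver from fatty acids, when it is not. In neurons and glia, BDH1 oxidizes beta-hydroxybutyrate to acetoacetate, OXCT1 activates acetoacetate with CoA from succinyl-CoA, and ACAT1 splits acetoacetyl-CoA into acetyl-CoA for the TCA cycle. Fatty acids and their derivatives activate the nuclear receptors of the PPAR family, which raise Pdk4, Angptl4, Plin2 and Ucp2 in peripheral tissues such as liver and muscle, and PGC-1alpha, the product of Ppargc1a, coactivates these receptors.

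For 3 of the 4 PPAR-responsive genes a RefSeq promoter window of the GRCm38.p6 build was at hand, from 250 bases before to 50 bases after the annotated start. They are shown because PPARs bind as dimers with RXR to direct repeats of the half-site AGGTCA. The sequences are given 5′ to 3′ on the strand of the gene, with AGGTCA or its reverse complement TGACCT in capitals. The Plin2 window lies on the minus strand at chr4:86670010-86670309, the Ucp2 window on the plus strand at chr7:100493108-100493407 and the Pdk4 window on the minus strand at chr6:5496229-5496528.
Plin2: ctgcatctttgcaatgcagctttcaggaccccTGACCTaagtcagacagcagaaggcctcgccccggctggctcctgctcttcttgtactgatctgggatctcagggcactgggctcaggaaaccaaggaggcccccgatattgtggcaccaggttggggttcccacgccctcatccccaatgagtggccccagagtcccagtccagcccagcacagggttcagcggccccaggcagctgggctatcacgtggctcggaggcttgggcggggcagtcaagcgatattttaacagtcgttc
Ucp2: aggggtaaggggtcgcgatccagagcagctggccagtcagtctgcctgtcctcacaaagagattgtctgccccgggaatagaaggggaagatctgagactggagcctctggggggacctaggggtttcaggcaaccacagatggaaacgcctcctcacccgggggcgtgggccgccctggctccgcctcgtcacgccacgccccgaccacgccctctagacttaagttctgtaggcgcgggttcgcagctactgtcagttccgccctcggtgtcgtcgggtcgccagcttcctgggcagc
Pdk4: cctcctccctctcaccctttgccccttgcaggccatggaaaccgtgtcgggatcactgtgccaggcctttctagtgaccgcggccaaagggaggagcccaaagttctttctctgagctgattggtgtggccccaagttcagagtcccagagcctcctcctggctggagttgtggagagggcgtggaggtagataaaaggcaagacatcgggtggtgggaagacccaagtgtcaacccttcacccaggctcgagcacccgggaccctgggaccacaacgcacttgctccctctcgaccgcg
The Plin2 window held 1 match, TGACCT, whose first base lies at -218 from the start. The letters did not occur in the windows of Ucp2, Pdk4, Oxct1, Ppargc1a or in the 2 windows of Bdh1. For comparison, 16.3% of the 32851 windows of this length held AGGTCA on either strand. The DR1 element, a direct repeat of this half-site with 1 position of each copy left free and 1 base between the repeats, was in 0.381% of all windows and in 0 of the 7 windows of these genes. No match says only that these letters are not in the window.

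The total count was 8061348 to 9689372 in the NCD libraries and 6842785 to 9119597 in the HFD libraries. Counts were scaled with edgeR's TMM method to CPM, counts of a gene per 1000000 counts of the library. A count of 3, taken as the floor, was 0.316 to 0.432 CPM and covers counting error only. QuantSeq reads come from the 3′ end of a transcript, so the CPM of a gene was compared between diets and not with that of another gene. The summed CPM of 8 neuron markers overlapped between diets, at 5620 to 5930 on the NCD and 5651 to 5687 on the HFD, and so did that of 8 astrocyte and 8 oligodendrocyte markers. HFD replicate 3 stood apart, with 1276 CPM over 7 anterior pituitary markers against 4.75 to 13.6 CPM in the other libraries. The sum of 7 pericyte and smooth muscle markers was higher in all HFD libraries, at 86.1 to 104 CPM against 80.5 to 85.5 CPM on the NCD. Of these 7, only Rgs5 had diets that did not overlap. In HFD replicate 3, Pdgfrb, Vtn and Myh11 were lowest of all libraries, at 6.60, 26.4 and 2.20 CPM. Rgs5 and Kcnj8 were highest there, at 29.1 and 5.91 CPM. Transcripts of red blood cells were higher in all HFD libraries, with 544 to 824 CPM over 5 markers against 421 to 519 CPM on the NCD. Liver markers without Ttr, which the choroid plexus also expresses, summed to 11.2 to 58.5 CPM on the NCD and 6.19 to 12.7 CPM on the HFD. Their part in the values below was not tested.

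All 8 genes passed the count filter and were tested. With edgeR's quasi-likelihood test, 0 of the 8 had an adjusted p under 0.05, 0 had an unadjusted p under 0.05 and 0 reached a fold of 1.5. By the adjusted p of DESeq2, 0 of these genes and 2 of all genes were called. Over the 13771 genes tested, 0% had an adjusted p under 0.05, 3.68% had an unadjusted p under 0.05, and 1.28% passed the thresholds of the study, a fold of at least 1.5 with an unadjusted p under 0.05. By direction these shares were 1.71% higher and 1.98% lower for the unadjusted p, and 0.53% higher and 0.748% lower for the thresholds of the study. In 3 of the 8 genes the diets did not overlap, against 8.81% of all genes tested. Of the 8 genes, 4 had a higher and 4 a lower fitted level on the HFD, and the median log2 fold change was -0.04, against -0.0025 over all genes tested, of which 50.6% were lower. The highest was that of Pdk4 and the lowest that of Ucp2, and the 95% interval of every one of the 8 held 0. The 95% interval lay within 1.5-fold in both directions for 4 of the 8, namely Bdh1, Oxct1, Acat1 and Ppargc1a, where 62.5% of all genes tested had such an interval. A 1.5-fold rise lay outside the interval of 6 of the 8, which adds Plin2 and Ucp2, against 77.5% of all genes tested.

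**Figure D1:**
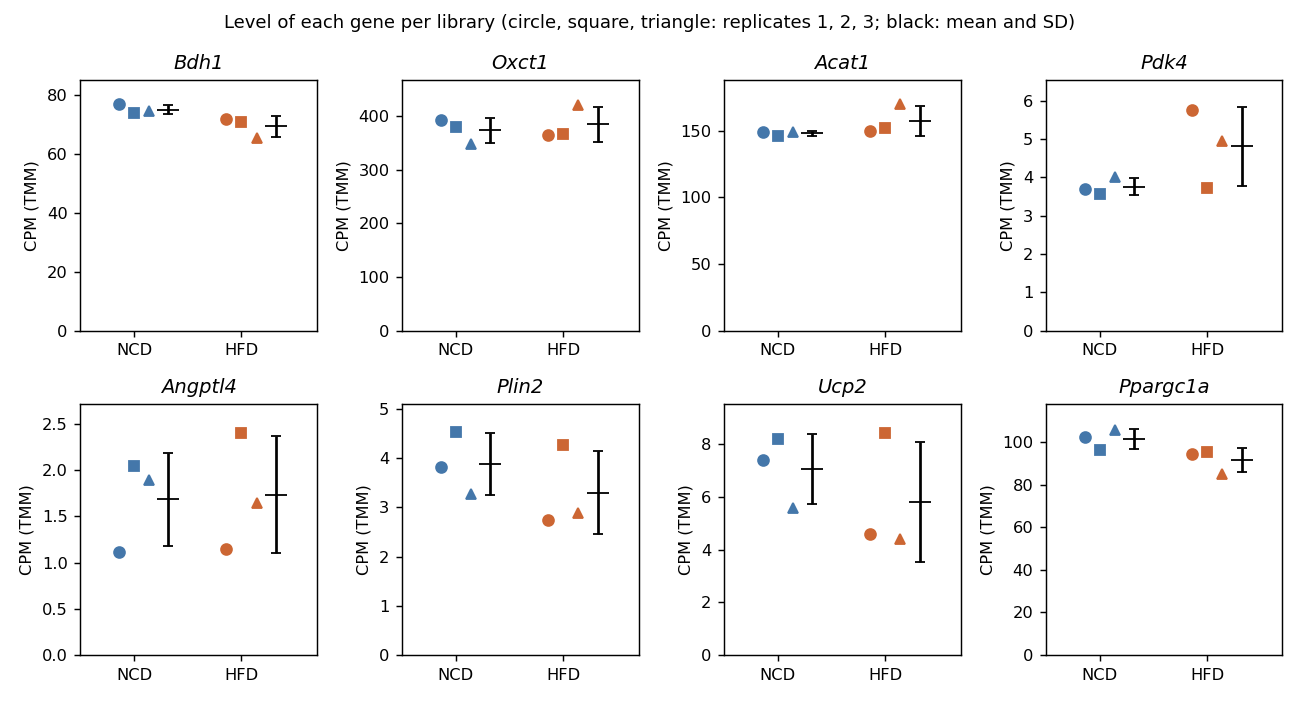
CPM of each of the 8 genes in the 6 libraries, with NCD in blue and HFD in orange, a marker shape for each replicate, and the mean with SD (n = 3) in black; every axis starts at 0. The groups are apart for Bdh1, Acat1 and Ppargc1a by small margins, and overlap for the other 5 genes.

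Of the ketone breakdown enzymes, Bdh1 (chromosome 16, from 31422280 to 31458901 of GRCm38), which encodes the first enzyme of the route, had 77.0, 74.0 and 74.6 CPM in NCD replicates 1, 2 and 3. In HFD replicates 1, 2 and 3 it had 72.1, 71.1 and 65.4 CPM. All 3 HFD libraries lay below the NCD libraries, as was the case for 4.49% of all genes tested. The means were 75.2 ± 1.60 CPM (SD, n = 3) and 69.6 ± 3.61 CPM (SD, n = 3), a log2 fold change of -0.11 (SE, the standard error, 0.11, edgeR quasi-likelihood adjusted p = 0.979, Benjamini-Hochberg). Its 95% interval ran from a fold of 0.793 to 1.08, and without HFD replicate 3, the lowest library, the log2 fold change was -0.07.

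Oxct1 (chromosome 15, from 4026383 to 4155344), which encodes the enzyme that commits acetoacetate to oxidation, had 394, 380 and 348 CPM on the NCD and 365, 367 and 422 CPM on the HFD. The groups overlapped, with the highest value in HFD replicate 3 and the lowest in NCD replicate 3. The log2 fold change was 0.04 (SE 0.10, edgeR quasi-likelihood adjusted p = 0.981, Benjamini-Hochberg), with a fold between 0.886 and 1.20 in the 95% interval. It was -0.03 without HFD replicate 3 and -0.0071 without NCD replicate 3, so no direction can be given.

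Acat1 (chromosome 9, from 53580522 to 53610382), the mitochondrial acetoacetyl-CoA thiolase, which also serves isoleucine breakdown, had 149, 146 and 149 CPM on the NCD. On the HFD it had 149.6, 151.7 and 169.9 CPM. The lowest HFD library lay above the highest NCD library, at 149.6 against 149.2 CPM, and all HFD libraries lay above all NCD libraries in 4.31% of the genes tested. The log2 fold change was 0.09 (SE 0.10, edgeR quasi-likelihood adjusted p = 0.979, Benjamini-Hochberg) and the fold lay between 0.912 and 1.23 in the 95% interval. Without HFD replicate 3 the log2 fold change of Acat1 was 0.03. The summed CPM of the 3 enzymes was 572 to 620 on the NCD and 587 to 657 on the HFD, with overlapping groups.

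An exon of BC037032 overlaps Oxct1 on the other strand, and one of Gm15743 overlaps Bdh1. The sources do not say whether the counting used strand, so reads of such pairs cannot be told apart. BC037032 had a row of its own with 0 to 5 counts per library.

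Ppargc1a (chromosome 5, from 51454250 to 51567726), which encodes the coactivator of mitochondrial biogenesis and of PPAR target genes, had 102, 96.3 and 106 CPM on the NCD and 94.4, 95.2 and 85.1 CPM on the HFD. All 3 HFD libraries lay below all 3 NCD libraries, at the closest pair with 95.2 against 96.3 CPM. The means were 101 ± 4.70 CPM (SD, n = 3) and 91.6 ± 5.61 CPM (SD, n = 3). The log2 fold change of -0.15 (SE 0.10) had the lowest unadjusted p of the 8 genes, 0.177, and an adjusted p of 0.979 (edgeR quasi-likelihood test, Benjamini-Hochberg). In the 95% interval the fold lay between 0.775 and 1.05. Without HFD replicate 3 the log2 fold change was -0.10. For a single gene, 3 libraries against 3 that do not overlap give an exact two-sided permutation p of 0.1, the smallest this design allows.

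The genes whose profile over the 6 libraries was most like that of Ppargc1a were Slx4, a scaffold of DNA repair nucleases, Sin3b, a corepressor, and Celf2, an RNA-binding protein. Their root mean square difference from Ppargc1a was 0.0203, 0.0204 and 0.0221 on the log2 CPM scale, after each gene was centred on its mean, where Ppargc1a itself varied with an SD of 0.0984. These were the nearest of all genes tested over 6 libraries, a choice that always returns close profiles. Each shared the lowest value in HFD replicate 3.

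**Figure D2:**
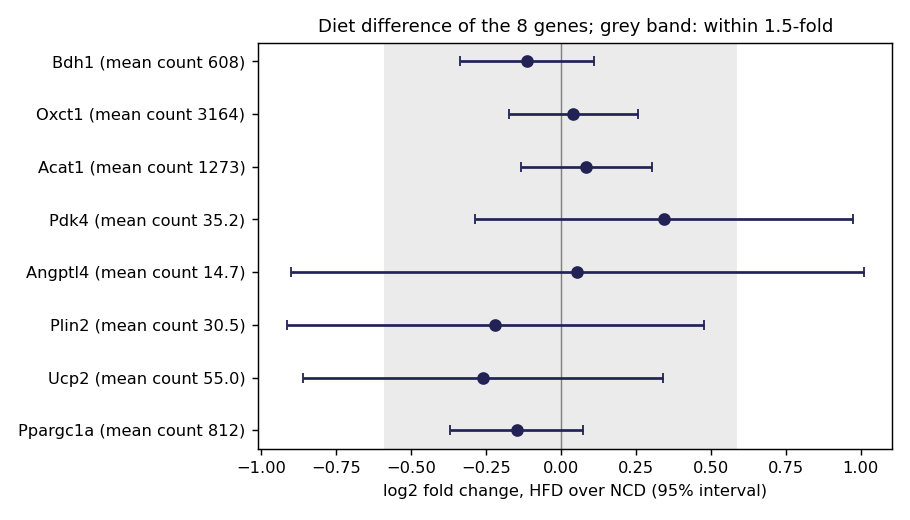
Log2 fold change of HFD over NCD for the 8 genes, with the 95% interval of the quasi-likelihood fit as bars and the mean count per library beside each name; the grey band covers differences within 1.5-fold. The intervals of Bdh1, Oxct1, Acat1 and Ppargc1a lie inside the band, while those of Pdk4, Angptl4, Plin2 and Ucp2 leave it on at least 1 side, and every interval holds 0.

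The 4 PPAR-responsive genes had few reads, with a mean count per library of 14.7 for Angptl4, 30.5 for Plin2, 35.2 for Pdk4 and 55.0 for Ucp2. Counting error alone gives a coefficient of variation of 26.1%, 18.1%, 16.9% and 13.5% at these counts. The spread between the 3 NCD libraries was 29.9% for Angptl4, 16.4% for Plin2, 6.03% for Pdk4 and 19.0% for Ucp2, and between the HFD libraries it was 36.3%, 25.5%, 21.4% and 38.9%. A 1.5-fold rise lay inside the 95% interval of Pdk4 and Angptl4, and a fall of that size inside those of Angptl4, Plin2 and Ucp2.

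Pdk4 (chromosome 6, from 5483351 to 5496309), which encodes the kinase that shuts pyruvate out of the TCA cycle by phosphorylating pyruvate dehydrogenase, had 30, 33 and 38 counts in NCD replicates 1 to 3 and 40, 34 and 36 in HFD replicates 1 to 3. The levels were 3.70, 3.56 and 4.003 CPM on the NCD and 5.76, 3.72 and 4.95 CPM on the HFD. HFD replicates 1 and 3 lay above all NCD libraries, while HFD replicate 2 lay among them. The means were 3.76 ± 0.226 CPM (SD, n = 3) and 4.81 ± 1.03 CPM (SD, n = 3), a log2 fold change of 0.34 (SE 0.30, edgeR quasi-likelihood unadjusted p = 0.264, Benjamini-Hochberg adjusted p = 0.979). The fold lay between 0.821 and 1.96 in the 95% interval. With 1 library left out the log2 fold change was lowest without HFD replicate 1, at 0.20, and highest without HFD replicate 2, at 0.51.

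The profiles nearest to that of Pdk4, which itself varied with an SD of 0.242 on the log2 CPM scale, were those of Ttn, the giant muscle protein titin, 2700049A03Rik and Tmem178, with root mean square differences of 0.0721, 0.0822 and 0.0907. Each was highest in HFD replicate 1 and next highest in HFD replicate 3.

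Angptl4 (chromosome 17, from 33773750 to 33781830), a secreted inhibitor of lipoprotein lipase, had 9, 19 and 18 counts in NCD replicates 1 to 3 and 8, 22 and 12 in HFD replicates 1 to 3. The levels were 1.11, 2.05 and 1.90 CPM and 1.15, 2.40 and 1.65 CPM, so that replicate 1 was lowest and replicate 2 highest in each diet. The log2 fold change was 0.05 (SE 0.45, edgeR quasi-likelihood adjusted p = 0.997, Benjamini-Hochberg) and the fold lay between 0.536 and 2.01 in the 95% interval. It was -0.27 without HFD replicate 2 and -0.16 without NCD replicate 1, so no direction can be given.

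Plin2 (chromosome 4, from 86648386 to 86670060), which encodes a coat protein of lipid droplets, had 3.83, 4.53 and 3.27 CPM on the NCD and 2.74, 4.26 and 2.89 CPM on the HFD. HFD replicates 1 and 3 lay below all NCD libraries and HFD replicate 2 lay among them. The log2 fold change was -0.22 (SE 0.33, edgeR quasi-likelihood adjusted p = 0.979, Benjamini-Hochberg), with a fold between 0.531 and 1.39 in the 95% interval. With 1 library left out it was lowest without HFD replicate 2, at -0.46, and highest without NCD replicate 2, at -0.09, and it was -0.13 without HFD replicate 3.

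Ucp2 (chromosome 7, from 100493337 to 100502020), which encodes a mitochondrial inner membrane carrier of the uncoupling protein family and is found in microglia, had 60, 76 and 53 counts in NCD replicates 1 to 3 and 32, 77 and 32 in HFD replicates 1 to 3. The levels were 7.41, 8.20 and 5.58 CPM on the NCD and 4.61, 8.41 and 4.40 CPM on the HFD. HFD replicate 2 was the highest of all 6 libraries and the other 2 HFD libraries were the lowest. The means were 7.06 ± 1.34 CPM (SD, n = 3) and 5.81 ± 2.26 CPM (SD, n = 3), a log2 fold change of -0.26 (SE 0.28, edgeR quasi-likelihood unadjusted p = 0.374, Benjamini-Hochberg adjusted p = 0.979). The fold lay between 0.551 and 1.27 in the 95% interval. Without HFD replicate 2 the log2 fold change of Ucp2 was -0.65 (edgeR quasi-likelihood unadjusted p = 0.0511, Benjamini-Hochberg adjusted p = 0.963), the lowest unadjusted p of any of the 8 genes under the alternatives tried, and without HFD replicate 3 it was -0.09.

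The summed CPM of 12 microglia and macrophage markers was 509 to 514 on the NCD and 520 to 552 on the HFD, so the HFD libraries lay above the NCD libraries here, while the fitted level of Ucp2 was lower on the HFD. Of the 12 markers, 9 had a higher and 3 a lower fitted level on the HFD. The lowest Ucp2 level came from HFD replicate 3, in which this sum was highest, at 552 CPM. The marker Csf1r was instead lowest in that library, at 93.1 CPM. The part of these cells in the Ucp2 values was not tested. An exon of Dnajb13, a gene of motile cilia, overlaps Ucp2 on the other strand, and the row of Dnajb13 had 0 to 5 counts per library.

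Plin2, Ucp2 and Angptl4 were each highest in replicate 2 of both diets, and Pdk4 was lowest in replicate 2 of both. This order was noticed after the values were seen. Over all genes tested, 8.98% were highest and 8.15% lowest in replicate 2 of both diets, and in the lists of related genes below 14 of 117 tested were highest and 10 lowest there. The liver markers without Ttr, a set made after the counts were seen, were highest in replicate 2 of both diets. They had 31.8, 58.5 and 11.2 CPM in NCD replicates 1 to 3 and 8.35, 12.7 and 6.19 CPM in HFD replicates 1 to 3. Over all libraries, Plin2 was highest in NCD replicate 2, while Ucp2 and Angptl4 were highest in HFD replicate 2. With Ttr kept in, the sum was highest in NCD replicate 3, at 1269 CPM, and HFD replicate 2, at 1210 CPM. The part of liver transcripts in these values was not tested.

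**Figure D3:**
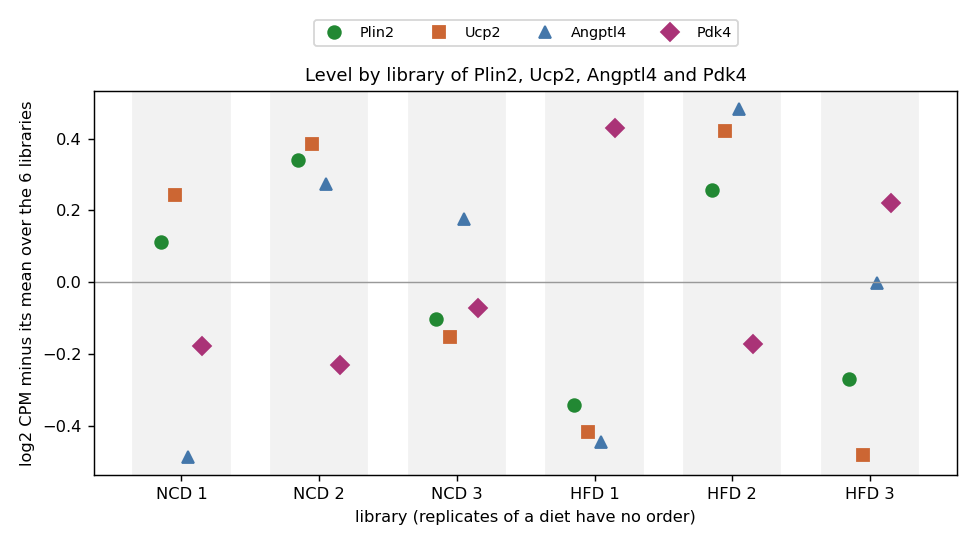
Log2 CPM of Plin2, Ucp2, Angptl4 and Pdk4 in each library, minus the mean of the gene over the 6 libraries. Replicate 2 of both diets holds the highest value of the diet for the first 3 genes, from 0.26 to 0.48, and the lowest value of Pdk4, at -0.23 and -0.17.

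The genes around these 8 were taken from 9 lists with 138 genes, of which 137 had a row and 117 were tested. Of these, 0 had an adjusted p under 0.05 (edgeR quasi-likelihood test, Benjamini-Hochberg, and DESeq2), 2 had an unadjusted p under 0.05 against 3.68% of all genes tested, and 1 passed the thresholds of the study against 1.28%. Their median log2 fold change was -0.0040, with 57 higher and 60 lower.

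Of the other ketone enzymes, 6 of 8 were tested and 0 had an unadjusted p under 0.05. Hmgcll1 had the lowest log2 fold change of this list, -0.16. The values were 0.23 for Bdh2, a cytosolic dehydrogenase of the same name series, and 0.07 for Acat2, the cytosolic thiolase. Oxct2a, a paralog of Oxct1 known from testis, had 0 counts in all 6 libraries, which allows up to 0.432 CPM.

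The transporters that carry ketone bodies and lactate across membranes, with their partner proteins, were all 6 tested, and 0 had an unadjusted p under 0.05. Their summed CPM was 244 to 266 on the NCD and 269 to 302 on the HFD. The diets thus did not overlap in the sum, while 0 of the 6 genes were apart on their own. Most of the sum came from the partner gene Bsg, with 156 to 174 CPM on the NCD and 172 to 208 CPM on the HFD. Of the 6 genes, 4 had a higher and 2 a lower fitted level on the HFD. The log2 fold changes were 0.06 for Slc16a1, -0.03 for Slc16a3 and 0.07 for Slc16a6. How often sums of other genes separate was not tested. Slc16a7, the neuronal monocarboxylate transporter MCT2, had the highest log2 fold change, 0.51 (SE 0.33, edgeR quasi-likelihood unadjusted p = 0.144, Benjamini-Hochberg adjusted p = 0.979). It had 4.81, 2.05 and 3.48 CPM on the NCD and 5.04, 4.92 and 4.67 CPM on the HFD, so that only NCD replicate 1 overlapped the HFD range, and the value was 0.24 without NCD replicate 2. Without NCD replicate 1 it was 0.81 (edgeR quasi-likelihood unadjusted p = 0.0416), with the lowest p of Slc16a7 under the alternatives tried. Emb, which encodes embigin, had the lowest, -0.07.

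Pyruvate dehydrogenase and its control covered 13 genes, all tested, with 0 at an unadjusted p under 0.05, and the interval of 11 lay within 1.5-fold in both directions. The paralogs of Pdk4 had log2 fold changes of 0.01 for Pdk1, 0.06 for Pdk2 and -0.12 for Pdk3. The range ran from -0.21 for Pdp2, a phosphatase that reactivates the complex, to 0.77 for Pdpr. Pdpr, a regulatory subunit of pyruvate dehydrogenase phosphatase, had 7, 12 and 2 counts in NCD replicates 1 to 3. In HFD replicates 1 to 3 it had 13, 8 and 10 counts. The value for Pdpr was 0.31 without NCD replicate 3 and 1.35 without NCD replicate 2. That for Pdp2 had an edgeR quasi-likelihood unadjusted p of 0.328 with all libraries. It was -0.45 without HFD replicate 3 and -0.09 without HFD replicate 1. The former had an edgeR quasi-likelihood unadjusted p of 0.0358, the lowest for Pdp2 under the alternatives tried.

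Around Angptl4, 4 of 9 listed genes were tested. Lpl, the lipase that ANGPTL4 inhibits, had means of 29.5 ± 1.55 CPM under NCD and 32.4 ± 3.14 CPM under HFD (SD, n = 3 each), the highest log2 fold change of this list, 0.13. Angptl2 had the lowest, -0.55 (SE 0.34, edgeR quasi-likelihood unadjusted p = 0.131, Benjamini-Hochberg adjusted p = 0.979). Its HFD libraries, at 3.17, 3.17 and 1.79 CPM, all lay below its NCD libraries, at 3.70, 4.64 and 3.58 CPM. Without HFD replicate 3 the log2 fold change was -0.33 for Angptl2 and 0.06 for Lpl.

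Of 17 lipid droplet genes, 14 were tested and 1 had an unadjusted p under 0.05. This was Abhd5, the coactivator of the lipase ATGL, with 18.8, 16.6 and 15.5 CPM on the NCD and 20.7, 18.6 and 27.2 CPM on the HFD. Its log2 fold change was 0.39 (SE 0.17, edgeR quasi-likelihood unadjusted p = 0.0354, Benjamini-Hochberg adjusted p = 0.979), and without HFD replicate 3 it was 0.21 (edgeR quasi-likelihood unadjusted p = 0.198). The unadjusted p of Abhd5 was also over 0.05 without NCD replicate 2, at 0.0778, without NCD replicate 3, at 0.105, and with a replicate block, at 0.0554. The perilipin paralogs Plin3 and Plin4 had log2 fold changes of 0.14 and -0.05, and Plin5, under the count filter, had 4 to 9 counts on the NCD and 2 to 6 on the HFD. The highest and lowest of the list were Cidea, at 0.43, and Fitm2, at -0.39. Cidea was at 0.20 without HFD replicate 3, and Fitm2 was at -0.10 without NCD replicate 3 and -0.67 without NCD replicate 1. Plin1, the perilipin of fat cells, had 1 count in NCD replicate 2 and 0 in the other libraries.

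Of 5 uncoupling protein relatives, 3 were tested, and 0 had an unadjusted p under 0.05. Ucp3 had 26, 11 and 12 counts in NCD replicates 1 to 3 and 5, 10 and 7 in HFD replicates 1 to 3, with all HFD libraries below the NCD libraries. Its log2 fold change of -0.98 (SE 0.53, edgeR quasi-likelihood unadjusted p = 0.0824, Benjamini-Hochberg adjusted p = 0.979) was -0.39 without NCD replicate 1. Slc25a27, with HFD replicate 2 the highest of the HFD libraries and NCD replicate 1 the highest of all, had a log2 fold change of -0.25, and Slc25a14 one of -0.0050. The value of Slc25a27 had an edgeR quasi-likelihood unadjusted p of 0.199 with all libraries. It was -0.45 without HFD replicate 2 and -0.11 without NCD replicate 1. The former had an edgeR quasi-likelihood unadjusted p of 0.0431, the lowest for Slc25a27 under the alternatives tried.

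The receptors, partners and coactivators, 22 genes that were all tested, had their median at -0.0040 on the log2 fold change scale with the highest value, 0.30, for Gabpa, a factor of mitochondrial gene transcription. Without HFD replicate 2 Gabpa was at -0.02. The PPAR genes had -0.18 for Ppara, -0.02 for Ppard and 0.26 for Pparg, with overlapping groups. Ppargc1b, the paralog of Ppargc1a, had -0.10, and 0.07 without HFD replicate 3. In this list 0 genes had an unadjusted p under 0.05.

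Of 40 genes of fatty acid handling, listed as PPAR targets or their relatives, 31 were tested. Of these, 14 were higher and 17 lower, and 0 had an unadjusted p under 0.05. The lowest log2 fold change was -0.24, for Cat, which encodes catalase. With all libraries the edgeR quasi-likelihood unadjusted p of Cat was 0.186. Its log2 fold change was -0.45 without NCD replicate 3 and -0.11 without NCD replicate 2. The former had an edgeR quasi-likelihood unadjusted p of 0.00821, the lowest for Cat under the alternatives tried. The highest was 1.03 (SE 0.68), for Ehhadh, the peroxisomal bifunctional enzyme, with 3, 13 and 1 counts in NCD replicates 1 to 3, 6, 16 and 9 in HFD replicates 1 to 3 and a value of 0.52 without NCD replicate 3. Of genes that liver raises strongly under PPAR-alpha, Fgf21 had 0 to 3 counts, and Cyp4a14 had 8, 19 and 1 counts in NCD replicates 1 to 3 and 1, 16 and 0 in HFD replicates 1 to 3, both under the count filter. Cyp4a14 was highest in replicate 2 of both diets, as were 8.98% of all genes tested and the liver markers without Ttr. It was picked after its values were seen, and the part of liver transcripts in its counts was not tested.

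Pdk4 and Angptl4 are also known targets of glucocorticoids and FoxO factors. Of 18 genes of this kind, all tested, 1 had an unadjusted p under 0.05 and also passed the thresholds of the study. Sult1a1, a sulfotransferase, had 7.78, 4.75 and 4.53 CPM on the NCD and 7.77, 8.52 and 9.49 CPM on the HFD, with overlapping groups. Its log2 fold change was 0.61 (SE 0.25, edgeR quasi-likelihood unadjusted p = 0.0293, Benjamini-Hochberg adjusted p = 0.979). The unadjusted p of Sult1a1 was 0.0998 without NCD replicate 2, 0.103 without NCD replicate 3, 0.0595 without HFD replicate 2 and 0.0774 without HFD replicate 3. The lowest log2 fold change was that of Per1, at -0.17 (edgeR quasi-likelihood unadjusted p = 0.352), while Fkbp5, a glucocorticoid target in brain, had -0.14. Per1 was at 0.04 without HFD replicate 3 and at -0.41 without HFD replicate 2. The latter had an edgeR quasi-likelihood unadjusted p of 0.0436, the lowest for Per1 under the alternatives tried.

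**Figure D4:**
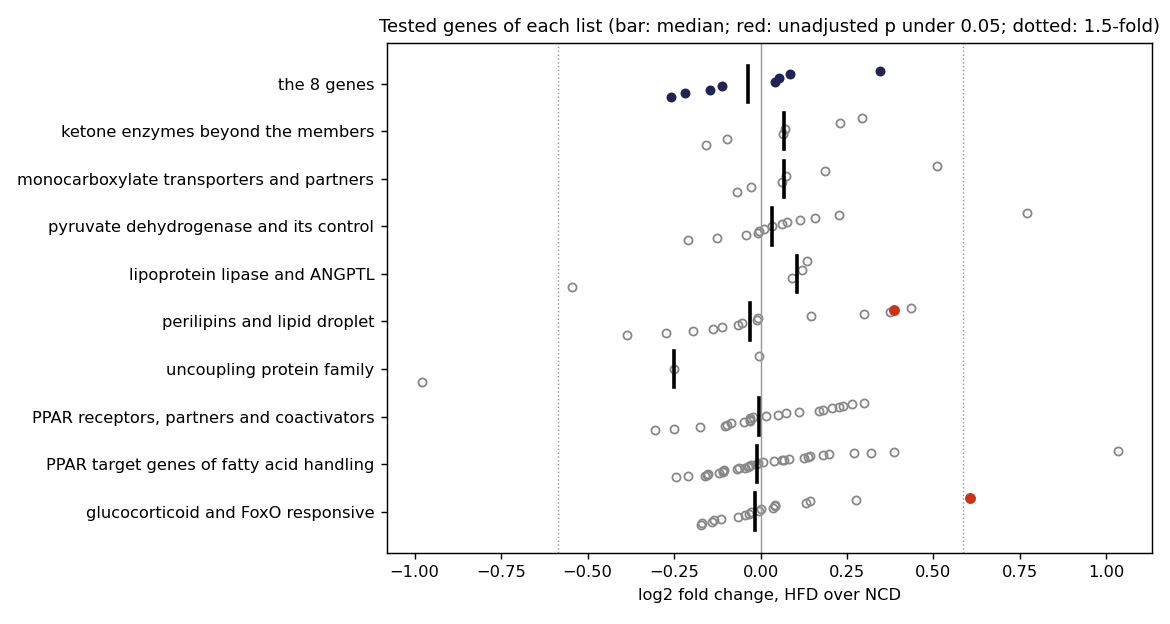
Log2 fold change of HFD over NCD for the 8 genes (filled) and for each tested gene of the 9 lists (open circles), with a black bar at the median of each list, genes with an unadjusted p under 0.05 in red and dotted lines at 1.5-fold. The medians of the lists run from -0.25 to 0.11, and the 2 red points are Abhd5 and Sult1a1.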

How the data were processed

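Forebrain RNA of 3 NCD and 3 HFD libraries was made into QuantSeq 3′ libraries and sequenced as single-end reads of 75 bases. Trimmed reads were aligned by the authors to mm10 with Bowtie2, and they deposited raw read counts per gene symbol, taken with Bedtools from unique and multiple alignments, before the quantile normalization they describe. Reads of near-identical genes can therefore be shared. The versions, the annotation and the use of strand are not given in the sources used here. Between libraries of the same diet the counts were apart by more than sampling noise (chi-square over its degrees of freedom 3.58 to 17.1), and each library was kept as 1 sample.

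The count tables were read into edgeR 4.0.16 under R 4.3.3. Its filterByExpr step (10 counts in enough libraries, 15 in total) kept 13771 genes, which were scaled with TMM and tested with glmQLFit and glmQLFTest, HFD against NCD, with Benjamini-Hochberg adjustment over all of them. Standard errors were obtained as the absolute log2 fold change over the root of the F statistic, and 95% intervals use the moderated degrees of freedom. Alternatives used DESeq2 1.42.0 and limma 3.58.1 with a pseudocount of 1. The scripts were tested on simulated data. Positions are from GENCODE vM21, and plots were made with matplotlib 3.10.9.

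The 8 genes and the lists were chosen with earlier results of these data known. Named besides the 8 are genes of the lists with an unadjusted p under 0.05 or a fold of at least 1.5, the highest and lowest of each list, and paralogs of the 8, except for items not reported here. The 3 nearest profiles are given for the 2 of the 8 genes with the lowest p. Oxct2a, Plin1, Cyp4a14, Fgf21, the PPAR genes, Fkbp5 and the sum of liver markers without Ttr were added after their values were seen.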

Additional observations from a re-analysis of the deposited data

How the results depend on the processing

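Of the 8 genes, 0 were called under each alternative run, by an adjusted p under 0.05 and by the thresholds of the study, though 7 of the 8 were tested when every library needed at least 10 counts. Over all genes tested, no pairing by replicate number was seen. The deviations of libraries of the same number had correlations of -0.0295, 0.0515 and -0.0574. Those of different number had -0.0631 to 0.0789. A pairing limited to few genes would not show in these values. With a replicate block, 0 of the 8 genes were called, with log2 fold changes of 0.33 for Pdk4, -0.30 for Ucp2 and -0.15 for Ppargc1a, 1 of the listed genes and 155 of all genes passed the thresholds of the study, and 0 of all genes had an adjusted p under 0.05. Of the genes in the lists around them, the number past the thresholds of the study was 1, and became 0 with library size alone, 0 with quantile normalization and limma, 2 without a filter and 0 to 2 with 1 library left out. Among all genes the number with an adjusted p under 0.05 was 0, and became 2 with DESeq2, 23 without a filter and 0 to 3 with 1 library left out. The 176 genes past the thresholds of the study became 396 without a filter, where more genes of low count are tested. Of the 501 fold changes under an alternative, 484 kept their direction and 17 reversed it. Outside the fits that left out 1 library, this was Pdk1, at -0.0065 with library size alone. With 1 library left out, the log2 fold change ranged from -0.0295 to 0.0807 for Oxct1, from -0.27 to 0.27 for Angptl4, from -0.123 to 0.0847 for Slc25a14, from -0.0170 to 0.53 for Gabpa, from -0.41 to 0.0444 for Per1, from -0.0818 to 0.0968 for Pdk1, from -0.0315 to 0.21 for Pdk2, from -0.16 to 0.10 for Plin4 and from -0.22 to 0.0650 for Ppargc1b. The cause was not tested. At the mean counts of Pdk4, Angptl4, Plin2 and Ucp2, 14.7 to 55.0, counting error alone was 13.5% to 26.1%.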
